A study of Mus musculus with 10 samples.

Results

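The proteasome genes of the mouse were read in the hippocampus of adult mice whose mothers had received estradiol valerate in pregnancy, and of controls. Members were taken by name: every non-control probe whose gene name in the files is Psma, Psmb, Psmc, Psmd or Psme followed by a digit. This rule took 71 of the 41174 probes on the array. Of these, 69 belong to 43 proteasome genes, and 2 belong to Psmc3ip, a cofactor of meiotic recombination that carries the prefix without being a subunit and is described apart. All 43 genes had at least 1 probe well above background on all 10 arrays, so that none was lost to the filter on dim probes. They are 43 of the 20068 genes tested.

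Total RNA of the hippocampus was read on 1-colour Agilent arrays in adult offspring of ICR mice, an outbred stock, with 5 animals a group, all labelled male. Dams of the high estradiol animals (HE) took estradiol valerate, an ester of estradiol, in corn oil by mouth at 100 µg/kg/day, starting on gestational day E5.5 and ending on E11.5. Dams of the controls (NC) took corn oil alone. The labels name no litter, so p-values cover only the spread between these animals.

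The proteasome is the large protease that degrades proteins tagged with ubiquitin. Its 20S core is a stack of rings: outer alpha rings that gate the channel and inner beta rings that hold the catalytic sites. The 19S particle caps the core, with a base of ATPases that unfold the substrate and a lid that removes the ubiquitin chain. Interferon induces replacement catalytic subunits, which form the immunoproteasome, and the PA28 alpha and beta subunits, which form a cap that does not use ubiquitin. In neurons the proteasome turns over synaptic proteins, while in the brain the immunoproteasome is known mainly from microglia and other glia.

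The results turn on how near relatives and transcripts of a gene were told apart, so 4 probe sequences are shown as deposited, 5′ to 3′, with positions on mm9. The first pair reads the constitutive chymotrypsin-like subunit Psmb5, at chr14:55233161-55233220, and its immunoproteasome counterpart Psmb8, at chr17:34337771-34337830. Capitals mark the 50 bases of best ungapped overlap, in which 31 bases, or 62%, were identical. The Psmb8 probe shown is the second of that gene. The Psmb8 values below come from its other probe, which spans chr17:34337828-34338152 and whose best overlap with the Psmb5 probe held 17 identical bases of 38. The other pair reads Psma3: the probe of its RefSeq mRNA, whose bases span chr12:72079794-72084356, and the probe of another transcript, at chr12:72079870-72079929, which lies inside the interval that the mRNA probe skips.
Psmb5: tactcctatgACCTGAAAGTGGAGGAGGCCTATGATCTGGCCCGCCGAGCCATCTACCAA
Psmb8: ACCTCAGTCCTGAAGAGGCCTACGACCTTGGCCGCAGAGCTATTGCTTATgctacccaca
Psma3 mRNA probe: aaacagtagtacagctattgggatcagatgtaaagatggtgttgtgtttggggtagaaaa
Psma3 other transcript: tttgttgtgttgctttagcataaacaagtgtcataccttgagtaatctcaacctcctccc

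Signals are given as log2 values relative to the 75th percentile of the same array, and a difference is HE minus NC on that scale. A gene was called at an adjusted p under 0.05 in limma, with Benjamini-Hochberg adjustment over all genes. Of all genes tested, 20.1% were called, 6.82% higher and 13.3% lower in HE. The 75th percentile of the signal lay between 899 and 1289, and the share of probes well above background between 70.3% and 78.9%. NC 1 to NC 4 shared slide 1 and HE 3 to HE 5 shared slide 3, so that both groups met only on slide 2, which carried NC 5 with HE 1 and HE 2. Xist and the Y-linked genes went against the male label on 7 arrays, 4 of NC and 3 of HE. All 7 markers of hippocampal neurons were measured, with 1 called higher and a list median of 0.68, while 6 of 6 thalamic markers and 6 of 7 myelin markers were lower in HE. Liver markers were higher on NC 1, NC 2 and NC 4, with a mean of -1.45 to -0.78, than on the other 7 arrays, at -8.60 to -4.78. The part of slide, sex pattern and tissue content in the results below was not tested beyond the values given. In bulk RNA, fewer cells of a type and less RNA per cell cannot be told apart.

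Only 2 of the 43 proteasome genes were called, both higher in HE and none lower, against the 20.1% of all genes. The called genes are Psme3, which encodes the nuclear activator PA28 gamma, and Psmd9, an assembly chaperone of the 19S base. At an unadjusted p under 0.05, 13 of the 43 passed, against 36.9% of all genes. The arrays of both groups did not overlap for 6 genes, with HE above for Psma6, Psmd1, Psmd9 and Psme3 and below for Psmb10 and Psme2. Of all genes 16.4% did not overlap, 5.9% with HE above and 10.5% below. The median size of the difference without sign was 0.19 for the proteasome genes and 0.26 over all genes. Over genes with a mean above the 75th percentile it was 0.20, near that of the proteasome genes. For 30 of the 43 genes, or 69.8%, the 95% interval of the difference lay wholly within 0.5 of 0, against 35.0% of all genes and 55.4% of the 8132 genes with a mean above the 75th percentile. Among those brighter genes 17.4% were called.

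**Figure D1:**
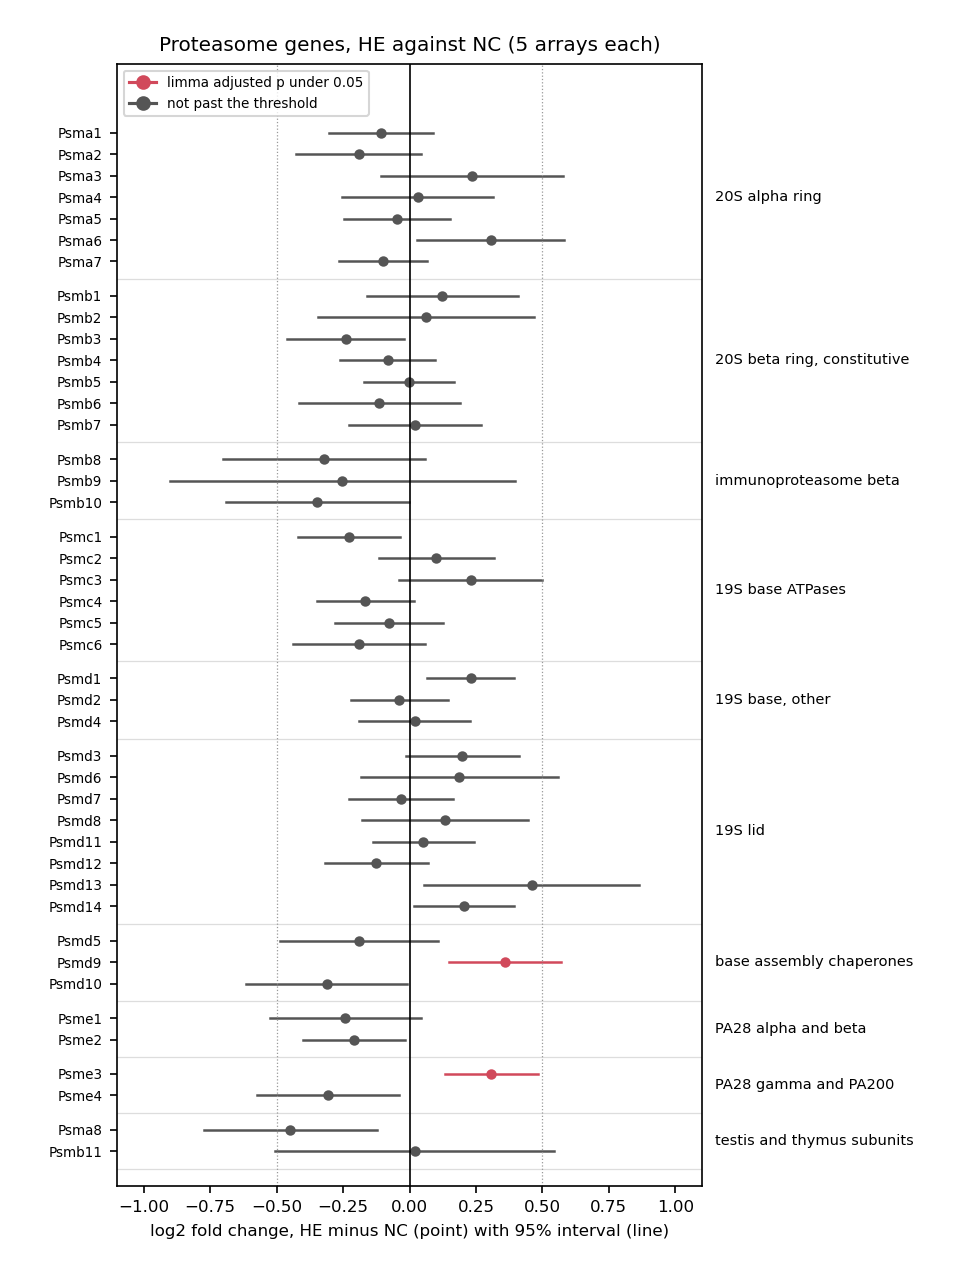
Log2 difference, HE minus NC (x axis), for each of the 43 proteasome genes (y axis, grouped by role); points are the fitted values, lines the 95% intervals, dotted lines mark 0.5 on either side of 0. Psme3 and Psmd9 alone passed the threshold in limma; the immunoproteasome and PA28 alpha and beta genes all lie left of 0, and the constitutive genes lie on both sides.

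Psme3 encodes PA28 gamma, which opens the 20S core in the nucleus for proteins such as cell cycle inhibitors. Its probe lies at chr11:101184185-101184245 on mm9. On NC 1 to NC 5 its signal was 0.85, 0.86, 0.88, 1.09 and 0.84, and on HE 1 to HE 5 it was 1.25, 1.23, 1.23, 1.22 and 1.12. Every HE array lay above every NC array, NC 4 standing above the other NC arrays and HE 5 below the other HE arrays. Psme3 rose from 0.90 ± 0.11 to 1.21 ± 0.05 (SD, n = 5 each), a difference of 0.31 ± 0.08 (SE) or 1.24-fold, with an adjusted p of 0.0249 in limma. With slide as a fixed block, which leaves NC 5 against HE 1 and HE 2, the difference was 0.40 with an adjusted p of 0.180. The call was also lost without NC 2, NC 5 or HE 1, where adjusted p was 0.0600, 0.0520 and 0.0624 at differences of 0.29 to 0.30. Without the 3 NC arrays of high liver signal the difference was 0.35, with an adjusted p of 0.0522.

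Psmd9 encodes the chaperone p27, which escorts ATPases into the 19S base and is not kept in the finished particle. Its probe lies at chr5:123698524-123698583. On NC 1 to NC 5 the signal was -1.17, -0.85, -0.96, -0.74 and -0.81, and on HE 1 to HE 5 it was -0.59, -0.55, -0.48, -0.48 and -0.62. Again all HE arrays lay above all NC arrays, with NC 1 the lowest. Psmd9 rose by 0.36 ± 0.09 (SE), from -0.91 ± 0.17 to -0.55 ± 0.06 (SD, n = 5 each), or 1.28-fold, with an adjusted p of 0.0276. A second probe of the same mRNA gave 0.19 and was not called. The call was lost without NC 2, HE 1 or HE 4, at adjusted p of 0.0542, 0.0566 and 0.0576, and without HE 3, where the second probe took the place of the first and gave 0.19 with an adjusted p of 0.161. With slide as a fixed block the difference was 0.24 (adjusted p 0.472), and with normexp background correction it was 0.19 (adjusted p 0.182).

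The other chaperones of the base had the opposite sign to Psmd9. Psmd10, also called gankyrin, which binds the ATPase Psmc4, gave -0.31 (95% interval -0.61 to -0.01), and Psmd5, which binds the ATPase Psmc2, gave -0.19 (-0.49 to 0.11), and neither was called. Psme4 encodes PA200, a single-chain nuclear activator known for the degradation of acetylated histones. Its signal on NC 1 to NC 5 was 2.85, 2.63, 2.53, 2.26 and 2.50, and on HE 1 to HE 5 it was 2.17, 2.39, 2.03, 2.37 and 2.26. The groups overlapped through NC 4, and the difference was -0.31 ± 0.12 (SE) with an adjusted p of 0.0956. Psme4 thus had the opposite sign to Psme3 without passing the threshold.

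The 31 constitutive subunits of the 20S core and the 19S particle held no called gene in limma, with 6 of the 31 at an unadjusted p under 0.05. Their differences had a positive sign in 16 and a negative sign in 15, with a median of 0.02, against -0.04 over all genes, and they ran from -0.24 in the beta subunit Psmb3 to 0.46 in the lid subunit Psmd13. The 95% interval lay within 0.5 of 0 for 27 of the 31. This balance of signs depended on the background correction: with normexp, which moved the median of all genes to -0.28, 28 of the 31 were positive with a median of 0.17. With normexp values centred on the median gene all 31 were positive, at 0.38. With slide as a fixed block the median was -0.14, where that of all genes was -0.13, and 8 of the 31 were positive.

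The 7 alpha subunits, which form the outer rings and the gate, ran from -0.19 in Psma2 to 0.31 in Psma6, with a median of -0.05. Psma6 was the one whose groups did not overlap: its HE arrays lay between 3.10 and 3.38 and its NC arrays between 2.56 and 3.09, without overlap, and the adjusted p was 0.104. The 7 constitutive beta subunits ran from -0.24 in Psmb3 to 0.12 in Psmb1, with a median of 0.00 and every interval within 0.5 of 0. Of the 6 ATPases of the base, 4 were negative, from -0.23 in Psmc1, a subunit whose tail helps to open the gate, to 0.23 in Psmc3. Among the other base subunits, the scaffold Psmd1 gave 0.23 with an adjusted p of 0.0525 and no overlap, its NC arrays at 1.88 to 2.08 and its HE arrays at 2.19 to 2.35. The scaffold Psmd2 gave -0.04 and the ubiquitin receptor Psmd4 gave 0.02. A second mRNA probe of Psmd2 gave 0.29, with all HE arrays above all NC arrays. That probe was not called in limma over all entering probes (adjusted p 0.0718). Psmd1 was called in some alternatives, such as slide as a random block (adjusted p 0.0446) and normexp (0.0428).

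The lid was the class of constitutive subunits with the highest median, 0.16 over 8 genes, 6 of them positive and none called. Psmd13 gave 0.46 (95% interval 0.05 to 0.86), Psmd14, the deubiquitinase that cuts the chain from the substrate, gave 0.21 (0.02 to 0.39), and Psmd3 gave 0.20 (-0.01 to 0.41). Psmd12 and Psmd7, at -0.12 and -0.03, were the negative ones. With slide as a fixed block 4 of the 8 lid genes were positive and their median was -0.01. The median of all genes was -0.13 there, against -0.04 in the main comparison. The sign of the class was thus not kept, while the lid median stayed above that of all genes.

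The arrays of a group kept much of their order across these genes. HE 3 was the highest HE array in 25 of the 31 constitutive genes and HE 5 the lowest in 20. Among NC, NC 5 was the highest in 16 and NC 3 in 10, while NC 1 was the lowest in 15 and NC 4 in 12. The median deviation of the 31 genes from their own means was 0.11 on HE 3, where that of all genes was -0.09, and -0.13 on NC 1, where that of all genes was 0.02. On NC 5 both were positive, at 0.16 for the constitutive genes and 0.13 for all genes. The spread was larger in NC than in HE for 34 of the 43 genes, or 79.1%, with a median SD of 0.18 against 0.10. That share was 64.0% over all genes and 71.3% over the brighter genes.

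**Figure D2:**
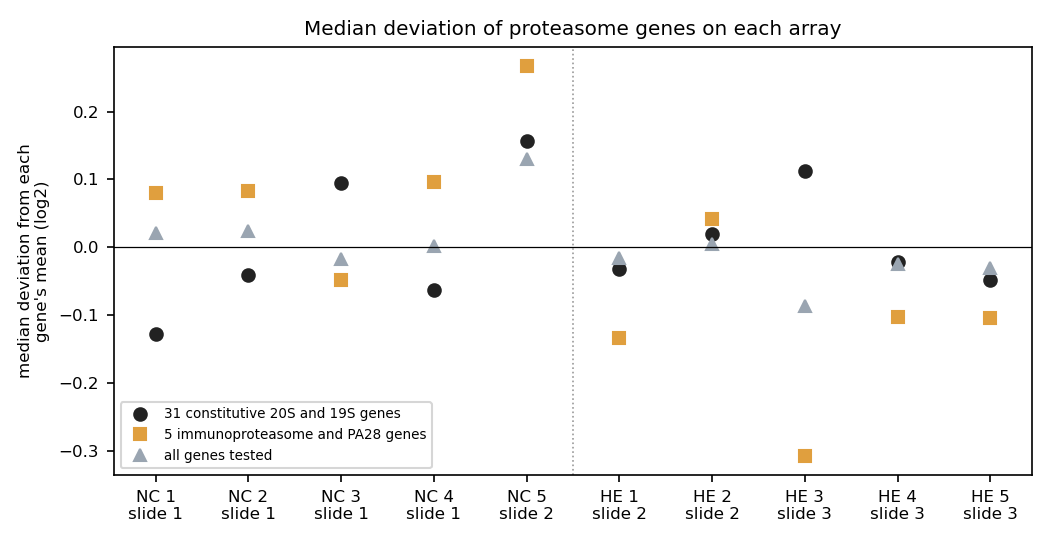
Median deviation (log2, y axis) from each gene's mean over the 10 arrays, on each array (x axis, with its slide), for the 31 constitutive genes, the 5 immunoproteasome and PA28 alpha and beta genes, and all genes tested. On HE 3 the constitutive genes sit at 0.11 and the inducible genes at -0.31; on NC 5 every set is above 0.

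The interferon-inducible genes were read apart. Psmb8, Psmb9 and Psmb10, the immunoproteasome counterparts of Psmb5, Psmb6 and Psmb7, and Psme1 and Psme2, which encode PA28 alpha and beta, all had a negative difference. None of the 5 was called, with 2 at an unadjusted p under 0.05. Their median was -0.25, from -0.35 in Psmb10 to -0.21 in Psme2, against -0.04 over all genes. All 5 were negative also with normexp and quantile normalization, 4 with slide as a fixed block, and 2 with normexp values centred on the median gene, which gave a median of 0.04. Against the median gene the sign of this list turned with normexp: the inducible median minus that of all genes was -0.21 in the main comparison and 0.11 with normexp, where they stood at -0.17 and -0.28.

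Psmb10 carries the trypsin-like site of the immunoproteasome. Its signal on NC 1 to NC 5 was 4.66, 4.87, 4.71, 4.67 and 4.84, and on HE 1 to HE 5 it was 4.63, 4.62, 3.85, 4.63 and 4.29. All HE arrays lay below all NC arrays, HE 3 and HE 5 by the widest margin and the other 3 by little. The difference was -0.35 ± 0.15 (SE, adjusted p 0.134), and -0.21 without HE 3.

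Psmb8 carries the chymotrypsin-like site of the immunoproteasome. Its signal was -1.0, -1.96, -1.87, -1.71 and -1.69 on NC 1 to NC 5 and -1.95, -1.76, -2.11, -2.03 and -1.97 on HE 1 to HE 5. NC 1 stood above all others, and the remaining arrays of the groups overlapped. The difference was -0.32 ± 0.17 (SE, adjusted p 0.199), with a second probe at -0.37. With normexp it was -0.63 and called, at an adjusted p of 0.0455, and without NC 1 it was -0.16.

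Psmb9 carries the site of the immunoproteasome that takes the place of the caspase-like one. It gave -1.17, -2.15, -2.26, -1.77 and -1.97 on NC 1 to NC 5 and -2.42, -1.19, -2.66, -2.32 and -1.98 on HE 1 to HE 5. HE 2 was about as high as NC 1, and the groups overlapped over most of their range. The difference of -0.25 had a 95% interval of -0.90 to 0.40, the widest of the 5 genes. Leaving out 1 array gave -0.48 (without HE 2) to -0.08 (without NC 1). With slide as a fixed block it was 0.17 (adjusted p 0.884), so its sign was not kept there.

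Psme1 gave 2.53, 3.03, 2.73, 2.96 and 3.25 on NC 1 to NC 5 and 2.66, 2.65, 2.58, 2.67 and 2.72 on HE 1 to HE 5. Its partner Psme2 gave 3.34, 3.48, 3.52, 3.44 and 3.74 on the NC arrays and 3.27, 3.30, 3.32, 3.30 and 3.30 on the HE arrays. In both genes NC 1 was the lowest and NC 5 the highest NC array, and the HE arrays lay close together. The SD was 0.28 in NC and 0.05 in HE for Psme1, and 0.15 and 0.02 for Psme2, a description without a test. The differences were -0.24 ± 0.13 and -0.21 ± 0.09 (SE), with adjusted p of 0.201 and 0.109, and a second Psme2 probe gave -0.17.

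**Figure D3:**
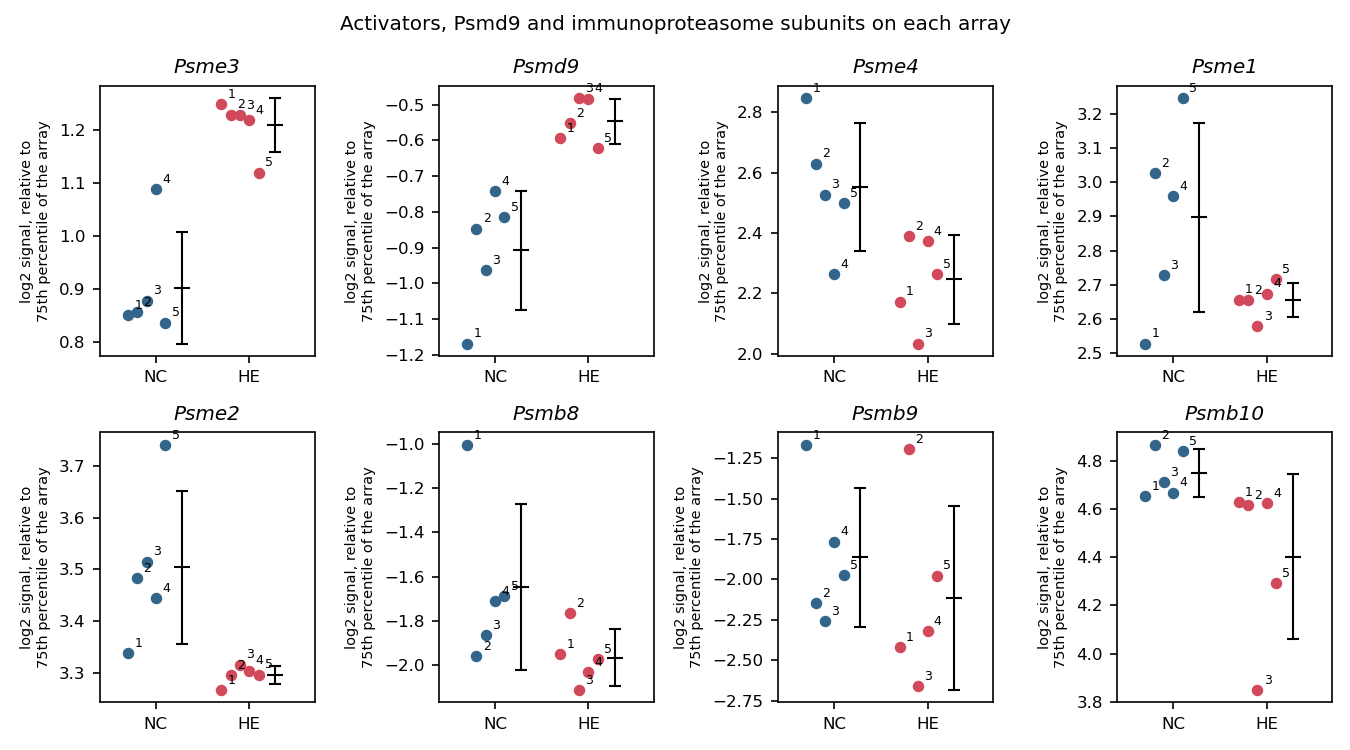
Log2 signal relative to the 75th percentile of the array (y axis, a scale of its own in each panel) for 8 genes on each NC and HE array; numbers are the array of the group, black bars the mean and SD (n = 5). Psme3 and Psmd9 separate upward in HE, Psmb10 and Psme2 lie lower in HE without overlap, and Psmb8, Psmb9, Psme1 and Psme4 overlap.

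The constitutive partners had smaller differences than their counterparts, and none was called. Psmb5 gave 4.17, 4.22, 4.33, 4.20 and 4.26 on NC 1 to NC 5 and 4.20, 4.31, 4.32, 4.24 and 4.09 on HE 1 to HE 5, a difference of 0.00 (95% interval -0.17 to 0.17). Psmb6 gave 4.46, 4.62, 4.43, 3.93 and 4.63, and 4.31, 4.28, 4.47, 4.23 and 4.22, a difference of -0.11 (-0.42 to 0.19). NC 4 was the low array there. Psmb7 gave 3.01, 3.11, 3.49, 3.18 and 3.49, and 3.19, 3.28, 3.38, 3.27 and 3.26, a difference of 0.02 (-0.23 to 0.27).

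Whether an immunoproteasome subunit and its constitutive counterpart changed unequally was tested on their difference within each array, in 3 pairs. The change of Psmb8 minus Psmb5 was -0.32, with an exact two-sided permutation p of 0.111 (n = 5 a group). That of Psmb10 minus Psmb7 was -0.37, with an exact permutation p of 0.0873, and that of Psmb9 minus Psmb6 was -0.14, with an exact permutation p of 0.738. None passed: adjusted over the 3 pairs these exact permutation values were 0.167, 0.167 and 0.738, where the smallest p the design allows is 0.00794. The SD of the within-array difference in NC was 0.42, 0.22 and 0.57 for Psmb8, Psmb10 and Psmb9, of the order of the changes themselves. With normexp the changes were -0.81, -0.39 and -0.62, with adjusted exact permutation p of 0.0714, 0.0714 and 0.262. Within slide 2 the changes were -0.16, 0.03 and 0.50.

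Markers of microglia, brain cells known for immunoproteasome subunits, were read beside these genes. Their mean level was 1.48 to 1.91 in NC and 1.46 to 1.96 in HE, with all 11 above background in both groups, 1 called higher and none lower. Of 6 endothelial markers 1 was lower, with a list median of -0.49 and mean levels of -1.30 to -0.50 in NC and -1.57 to -1.20 in HE. Of 6 leukocyte markers 1 was lower, with mean levels of -3.42 to -2.24 in NC and -3.55 to -2.85 in HE. Of 5 astrocyte markers 1 was lower, with a list median of -0.14 and mean levels of 2.01 to 2.72 in NC and 1.8 to 2.21 in HE. None of these 4 lists had a marker below background on all arrays of a group. The part of the endothelial and astrocyte markers in the immunoproteasome values was not tested.

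The 2 subunits of other organs were also read. Psma8, the alpha subunit of the testis, gave -0.45 with an adjusted p of 0.0548, its NC arrays at -3.45 to -3.12 and its HE arrays at -4.10 to -3.35. Psmb11, the beta subunit of the thymus cortex, gave 0.02 (95% interval -0.50 to 0.54). Psma8 was called lower in 6 of 26 alternatives, normexp and slide as a random block among them. Its size depended on the processing: the difference was -1.13 with normexp and -0.22 with quantile normalization (adjusted p 0.219 in limma).

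Several proteasome genes had more than 1 probe, and these disagreed in a pattern that went with the accession they were designed on. Of the probes that entered, 57 carry a RefSeq mRNA accession. Their differences had a median of -0.05, with 3 called higher and 1 lower in a fit over all 30981 entering probes, in which 22.9% were called, 8.2% higher and 14.7% lower. The 9 probes designed on other transcripts had a median of -0.38, with 7 negative and 3 called lower. The same split ran over the array: the median was 0.01 over 22741 probes of RefSeq mRNAs and -0.32 over 8240 probes of other transcripts, of which 9.81% and 28.4% were called lower. The split is therefore not particular to proteasome genes. In these genes the accession also went with signal level. The probes of other transcripts had NC means of -6.56 to -1.04, except the Psmc6 one at 1.48. The probes that represent the same genes, by rule the brightest, had NC means of 2.45 to 4.81. The part of signal level in the split was not tested.

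Psma3 is the gene of the sequences given above, and its probes of other transcripts did not move together. The mRNA probe gave 2.09, 2.12, 2.82, 2.50 and 2.70 on NC 1 to NC 5 and 2.65, 2.65, 2.90, 2.62 and 2.59 on HE 1 to HE 5, a difference of 0.24 that was not called. The probe inside the skipped interval gave -0.79, -0.95, -1.23, -1.41 and -0.83 on NC 1 to NC 5 and -2.08, -1.62, -2.50, -1.92 and -1.43 on HE 1 to HE 5. All HE arrays lay below all NC arrays, HE 5 by the least, and the probe fell by 0.87 (adjusted p 0.0183). HE 3 was the highest HE array for the mRNA probe and the lowest for the inner one. A second probe of another Psma3 transcript gave 0.44, above the mRNA probe, and was not called (adjusted p 0.102). Over the whole array, 40 probes in 37 genes lay inside an interval skipped by a RefSeq probe of the same gene, with a median difference of -0.37 against 0.02 for the RefSeq probes, and 25 of the 40 lay below their partner. No annotation of mm9 was used here, so whether such an interval is an intron in every transcript was not tested.

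The lid subunit Psmd7 had a called probe of another transcript at -0.77 (adjusted p 0.0114), where its mRNA probes gave -0.03 and -0.29. Psme4 had 4 entering probes: one of another transcript at -0.88 (adjusted p 0.0169), an mRNA probe at -0.73 (0.0351), and mRNA probes at -0.31 and -0.07 that were not called. For Psmd14 an mRNA probe was called higher at 0.43 (0.0264), another gave 0.21, and a probe of another transcript gave -0.43, which was well above background on only 2 NC and 3 HE arrays. Over 8 genes, 7 of the 9 probes of other transcripts lay below the probe that represents the gene, by a median of -0.48 over the 9, and 5 had the opposite sign. Without that dim Psmd14 probe, 6 of 8 lay below, by a median of -0.38, and 4 had the opposite sign. Of 14 further mRNA probes in 12 genes, 5 lay below, with a median of 0.04, and 2 had the opposite sign. These were Psmc5, at 0.28 against -0.08, and Psmd2, at 0.29 against -0.04. When the entering probes of each gene were averaged, Psmd7 and Psme4 were called lower.

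**Figure D4:**
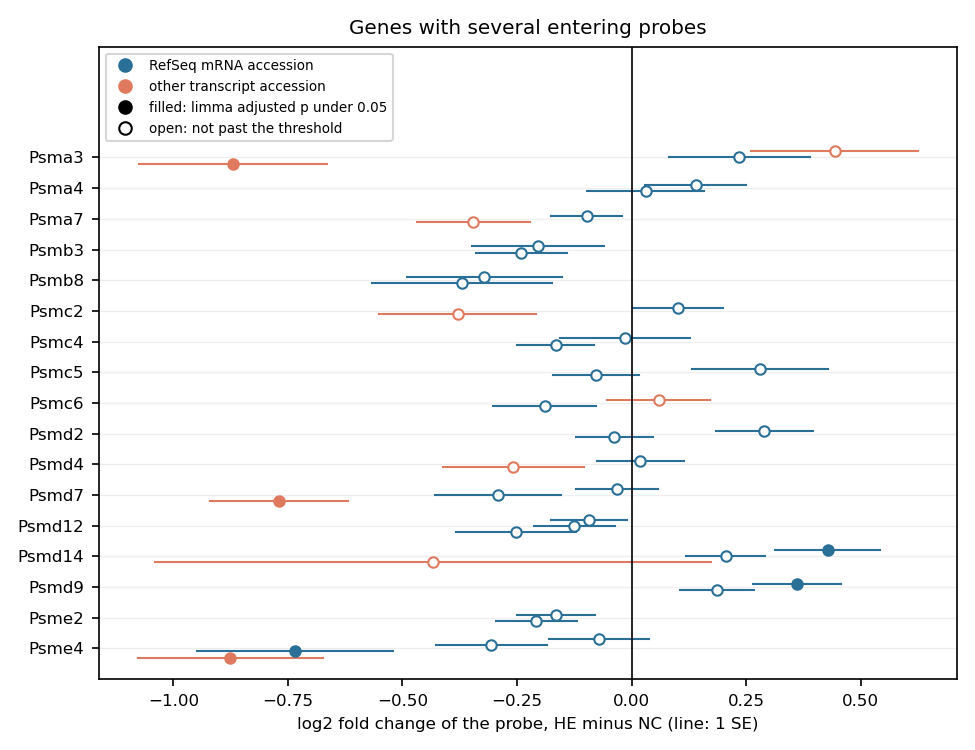
Log2 difference, HE minus NC (x axis), of every entering probe of the 17 proteasome genes with more than 1 such probe (y axis); lines are 1 SE, colour gives the kind of accession, filled points were called in the fit over all entering probes. Probes of other transcripts lie below the mRNA probes in Psma7, Psmc2, Psmd4, Psmd7, Psmd14 and Psme4, on both sides of them in Psma3, and above in Psmc6; the Psmd14 one was well above background on 2 NC and 3 HE arrays only.

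The other genes of the pathway were read from lists of textbook members. Of 14 assembly factors and regulators, 1 rose and 1 fell, with a median of -0.11, beside 20.1% of all genes called and a median of -0.04. Akirin2, which carries proteasomes into the nucleus, rose from 1.33 ± 0.17 to 1.70 ± 0.18 (adjusted p 0.0457), a call kept in 12 of 26 alternatives. Uchl5, a deubiquitinase of the 19S particle, fell from 3.44 ± 0.13 to 3.03 ± 0.15 (adjusted p 0.0220), without overlap. That call was kept in 18 of 26 alternatives and lost with normexp, at -0.22 (adjusted p 0.273). Usp14, the other deubiquitinase that binds the particle reversibly, gave -0.44 (adjusted p 0.0534). Pomp, the chaperone that completes the 20S core, gave -0.22 (0.0659) with HE below NC on all arrays.

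Of 10 genes around Nfe2l1, the transcription factor that raises proteasome genes when proteasomes are inhibited, none was called, and 1 of the 10 passed an unadjusted p under 0.05. Their median was -0.01. Mafg, a DNA-binding partner of that factor, gave 0.27 (adjusted p 0.0516), Nfe2l2 gave -0.30 (0.194), and Sel1l and Syvn1, which serve the degradation of proteins from the endoplasmic reticulum, gave 0.18 (0.196) and 0.16 (0.290).

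Of the 4 ubiquitin genes and activating enzymes reported here 1 fell and none rose, where 13.3% of all genes were lower. Rps27a, which encodes ubiquitin fused to a ribosomal protein, fell from 6.56 ± 0.15 to 6.20 ± 0.09 (adjusted p 0.0269), without overlap. With normexp values centred on the median gene its difference was 0.15, so this direction was not kept there, and it was called in 14 of 26 alternatives. The activating enzyme Uba1 gave 0.32 (adjusted p 0.0619).

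Of 10 factors that carry ubiquitinated proteins to the proteasome 2 rose, none fell, and the median was 0.18, beside 6.82% of all genes called higher and 20.1% called either way. Ubqln4 rose from -0.49 ± 0.17 to -0.01 ± 0.17 (adjusted p 0.0214) and Rad23b from 0.63 ± 0.04 to 0.90 ± 0.11 (adjusted p 0.0382), both without overlap. The mean of the Rad23b probes gave -0.06, the opposite sign. Rad23b was called in 11 of 26 alternatives and Ubqln4 in 22. Ubqln2 and Ubqln1 gave 0.41 (0.0520) and 0.30 (0.0836).

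Of 19 genes of antigen presentation and the interferon response, 2 fell and none rose, with a median of -0.22 and 15 negative. Some of the 19 share inducers with the immunoproteasome. Over all genes 13.3% were called lower, and the median was -0.04. Ifit1, an antiviral RNA-binding protein, fell from -2.28 ± 0.53 to -3.34 ± 0.34 (adjusted p 0.0225), and Irf9, the DNA-binding part of the interferon-activated complex, fell from -1.04 ± 0.33 to -1.73 ± 0.25 (adjusted p 0.0256). Ifit1 was called in 22 of 26 alternatives and Irf9 in 18. The chaperone Canx gave -0.22 (0.0750) and the ubiquitin-like Isg15 gave -0.62 (0.0850).

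Promoters were read for motifs of factors named above and for the CCAAT box. The RefSeq windows ran from 250 bases before to 50 after the start on GRCm38.p6, and both strands were read. A window was found for 36 of the 43 genes. The antioxidant response element core, TGACNNNGC, stood in 6 of the 36 (16.7%), against 13.99% of 27025 genes, and in 4 of 25 constitutive genes. The CCAAT box stood in 14 of the 36 (38.9%), against 41.1%. The core of the interferon-stimulated response element, GAAA and again GAAA with NN between, stood in 4 of the 36 (11.1%), Psmb3, Psmd4, Psmd9 and Psme1, against 3.99%, and in 1 of the 5 inducible genes. The windows of both called genes and of Psme1 are shown, with motif matches in capitals: Psme3 at chr11:101315963-101316262 holds a CCAAT box on the minus strand, Psmd9 at chr5:123227940-123228239 holds TGACNNNGC and the interferon-stimulated core, and Psme1 at chr14:55578244-55578543 holds the interferon-stimulated core on the minus strand. All 3 genes lie on the plus strand, and the matches shown do not overlap each other. A match is a stretch of letters and not a measured site.
Psme3: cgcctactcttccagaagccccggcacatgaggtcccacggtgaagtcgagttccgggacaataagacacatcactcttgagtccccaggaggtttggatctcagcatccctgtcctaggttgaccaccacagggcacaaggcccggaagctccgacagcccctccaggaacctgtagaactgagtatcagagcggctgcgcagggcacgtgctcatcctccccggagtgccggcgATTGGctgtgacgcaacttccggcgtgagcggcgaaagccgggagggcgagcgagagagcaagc
Psmd9: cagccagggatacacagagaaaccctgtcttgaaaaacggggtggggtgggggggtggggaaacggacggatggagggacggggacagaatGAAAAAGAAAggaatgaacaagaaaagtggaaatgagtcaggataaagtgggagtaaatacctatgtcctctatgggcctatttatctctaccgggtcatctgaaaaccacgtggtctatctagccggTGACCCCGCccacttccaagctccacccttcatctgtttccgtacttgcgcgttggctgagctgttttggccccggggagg
Psme1: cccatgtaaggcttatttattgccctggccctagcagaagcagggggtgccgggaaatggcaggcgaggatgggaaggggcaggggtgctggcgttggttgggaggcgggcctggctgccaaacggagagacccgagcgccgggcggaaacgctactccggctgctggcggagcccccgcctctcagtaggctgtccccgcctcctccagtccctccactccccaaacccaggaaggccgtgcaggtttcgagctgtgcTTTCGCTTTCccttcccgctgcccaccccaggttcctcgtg

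Psmc3ip, taken by the prefix alone, varied far more than any subunit. Its signal was 0.78, 1.68, -1.07, 1.59 and 0.88 on NC 1 to NC 5 and 1.66, -1.51, -0.75, -1.67 and -0.91 on HE 1 to HE 5. HE 1 lay among the high NC arrays and NC 3 among the low HE arrays. The difference of -1.41 ± 0.70 (SE) was not called, at an adjusted p of 0.171.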

How the data were processed

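Hippocampal RNA of 10 mice, 5 NC and 5 HE, was read on Agilent 1-colour (Cy3) arrays. The submitters' processing notes name Agilent Feature Extraction 10.7 for quantification. The deposited scanner files hold intensity per spot, background-subtracted within each array, per the file headers. The authors also deposited a table of log2 values, whose making is not stated. Set against the scanner files, its columns equalled quantile-normalized log2 processed signals closely (r at least 0.99995, column medians of 7.029), so their scale and direction are known, and no centring was seen.

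From log2 processed intensity the 75th percentile of the same array was subtracted, and non-uniform and outlier spots were left out (68 to 129 per array). No spot was saturated. Probes entered that exceeded background clearly on 3 or more of a group's 5 arrays. Each gene was represented by the entering probe with the highest mean, named through RefSeq accessions or symbols (27668 probes by accession). HE and NC were fitted in limma 3.58.1 under R 4.3.3 with lmFit and eBayes, two-sided and without covariates, with Benjamini-Hochberg adjustment over 20068 genes and a threshold of 0.05. Pairs of catalytic subunits were compared with an exact permutation test in SciPy 1.17.1. On simulated data for this comparison of 20068 genes, the fit recovered 22.4%, 47.8% and 84.8% of genes changed by 0.5, 1 and 2 on the log2 scale. It made 4 wrong calls of 107, and 0 calls with nothing planted. The simulation planted 67, 67 and 66 such changes in independent noise without a slide effect. In the data 4031 genes were called, so these rates need not hold there.

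The members, lists and tests were chosen with earlier results of these data known. Every member could be named. Values on every array are given for called members, Psmb5 to Psmb10, Psme1 to Psme4 and Psmc3ip, and each pathway list gives the 4 genes with the smallest p, except that certain genes of the ubiquitin list are not reported here and stay out of its counts, so that it gives Rps27a and Uba1. The per-array values of the Psma3 probes were chosen after they were seen. Alternatives were a block for slide, fixed or random, slide 2 on its own, a block for the replicate number, normexp (offset 50) with or without centring, quantile normalization, the value table, filters on dim probes, the mean of a gene's probes, a robust prior with an intensity trend, the sex pattern as a covariate, the arrays with high Xist only, leaving out NC 1, NC 2 and NC 4, and leaving out each array. Centring on the median gene, and leaving out arrays for the pairs, were chosen after seeing the data. The number of arrays limits the precision. Probe positions are those of the files, on mm9, and promoters are RefSeq's on GRCm38.p6.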

Additional observations from a re-analysis of the deposited data

Results flagged for a closer look

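Among 88 groups of 5 arrays examined for the members, 13 held an array whose gap to its nearest neighbour was wide against the range of the group, where chance gives about 1 in 20. HE 3 was the high array in 7 of them: Psma1 at 3.95, Psma2 at 5.51, Psma3 at 2.90, Psma6 at 3.38, Psmb1 at 3.80, Psmd1 at 2.35 and Psmd6 at 3.42. NC 4 was the low array for Psma4 at 2.06 and Psmb6 at 3.93. NC 1 was the high array for Psmb8 at -1.0. For Psme3, NC 4 was high at 1.09 and HE 5 low at 1.12, and the groups still did not overlap. HE 1 was the high array for Psmc3ip at 1.66. The flags share arrays, so they are not independent of each other.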

How the results depend on the processing

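The count of 2 called proteasome genes was 0 with slide as a fixed block (185 genes called in all), 0 in slide 2 alone (0 in all), 0 on the arrays with high Xist (77 in all) and 0 without NC 1, NC 2 and NC 4 (1918 in all). It was 4 with slide as a random block, with the filter on all arrays, with the mean of a gene's probes and with the intensity trend. With normexp it was 5 (8726 in all), and 9 when centred (8851 in all). The share of calls that were higher was 34.0% in the main comparison, 21.3% with normexp, 44.2% with quantile normalization, 44.6% with the value table and 44.8% when centred on the median gene. Leaving out 1 array at a time gave 0 to 5 called proteasome genes and 1912 to 4184 in all, the lowest without NC 2, and 2011 without HE 1 and 2236 without NC 5.

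The constitutive median of 0.02 was -0.14 with slide as a fixed block and in slide 2 alone, 0.17 with normexp, 0.38 when centred, -0.0458 with quantile normalization, -0.0462 with the value table, -0.12 without NC 1, NC 2 and NC 4, 0.0814 when centred on the median gene, and -0.0351 to 0.0337 leaving out 1 array. The median of all genes was -0.13 with slide as a fixed block and in slide 2 alone. The inducible median was 0.0351 with normexp centred, and -0.37 to -0.21 leaving out 1 array. Of the pairs, Psmb9 minus Psmb6 ran from -0.37 to 0.0401 leaving out 1 array, turning positive without NC 1 (0.0247), NC 4 (0.00713) and HE 3 (0.0401). Psmb8 minus Psmb5 ran from -0.40 to -0.14 and Psmb10 minus Psmb7 from -0.45 to -0.20. Among called genes the sign turned for Rps27a with normexp centred (0.15) and for Rad23b with the mean of probes (-0.0622). Of the 55 named genes that were not called, 38 had the opposite sign in at least 1 alternative, 16 of them with normexp and 25 with normexp centred. The cause of these changes was not tested. Psme3 was called in 18 of 26 alternatives (0.28 to 0.59) and Psmd9 in 16 of 26 (0.19 to 0.42), both positive in all 26.

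The groups share replicate numbers, and the deviations of same-numbered arrays correlated at -0.08, -0.05, 0.13, 0.12 and -0.06. Differently numbered arrays were not set beside them, so these values cannot decide whether the numbers pair the animals. With the replicate number as a block, 0 proteasome genes and 2976 genes in all were called.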
